A study of Homo sapiens with 21 samples.

Results

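Oxidative phosphorylation is carried out by 4 respiratory complexes of the inner mitochondrial membrane, by the mobile carrier cytochrome c and by the ATP synthase. Electrons enter at complex I (NADH dehydrogenase) or complex II (succinate dehydrogenase), pass through complex III and cytochrome c, and reach oxygen at complex IV (cytochrome c oxidase), and the proton gradient built on the way drives complex V, the ATP synthase. Most subunits are encoded in the nucleus and a few by mitochondrial DNA, and the beating heart depends on this pathway more than most tissues do.

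The genes described here are the nuclear-encoded ones, chosen by name: symbols starting with NDUF, UQCR, COX or ATP5, the 4 SDH genes, CYC1 and CYCS, with pseudogenes left out. The rule took 93 genes with 176 transcripts, of 11851 gene names and 21537 transcripts listed in at least 1 of 6 deposited tables. Complex I accounted for 43 genes, complex II for 4, complex III for 9, complex IV for 19 and complex V for 17, and CYCS made up the remainder; by role, 14 of them were assembly factors and not subunits, and ATP5IF1 and COX7A2L were an inhibitor and a supercomplex factor. Of 107 protein-coding genes with fitting symbols, another 14 were listed in no comparison, among them ATP5F1A, COX7A1, COX7A2, COX4I2, COX6B2, COX7B2 and COX8C. Whether these were tested is not known, and every share of the 93 genes below leaves them out.

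RNA was sequenced from PGP1 cells, a human induced pluripotent stem cell (iPSC) line, in 21 libraries, 3 for each of 7 groups. Wild-type cells were taken as undifferentiated iPSC and as mesoderm (M), cardiac mesoderm (CMes), cardiac progenitors (CP) and cardiomyocytes (CM). Cardiomyocytes were also taken from 2 lines, UBE2B-/-1 and UBE2B-/-2, made from the same cells by separate rounds of gene editing. UBE2B is the ubiquitin-conjugating enzyme that works with the RNF20 and RNF40 ligase to place ubiquitin on histone H2B, and the comparisons ask how transcripts changed at each step toward the cardiomyocyte and how they differed when this enzyme was disrupted. Each UBE2B-/- group is a single edited line. Per the study, the RNA of these lines came from beating cardiomyocytes, which formed less often than in wild type. By staining, the study found NKX2.5 and TNNT2 in part of these beating cells and not in all. Cardiomyocytes had been selected in lactate medium without glucose, which the earlier stages were not, so the selection and the stage cannot be told apart.

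The tables give, for each transcript at a q-value of at most 0.05, the difference of group means and its standard error (SE), and hold no value for a single library, so sequencing depth is unknown and each level below is a mean over the 3 libraries of a group, in normalised estimated counts. Changes are given as log2 with the SE of the deposited fit, and a transcript was called when its q-value was at most 0.05 and its change at least 1.5-fold. Each gene, markers included, was followed through its most abundant listed transcript, its main transcript, and is called listed in a comparison when that transcript is. A gene that is not listed may have changed by less than could be resolved: at the median SE of the members the smallest change that could be listed was 0.40 (log2) from CP to CM and 0.62 for both UBE2B-/- lines.

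Cardiomyocyte markers placed CM as labelled, and 0 of them were listed from iPSC to M. All 9 listed markers of cardiomyocytes, among them TNNT2, MYH7, ACTN2 and NKX2-5, rose from CP to CM, and 6 of 7 pluripotency markers fell. Markers of other cell types moved in both directions at that step. Of 8 mesenchymal markers 5 fell and POSTN rose; FN1, the most abundant, had 236822 estimated counts in CP and 59274 in CM (q = 0.00877). Of 8 endoderm and epithelial markers 4 fell, with the most abundant, TTR, at 14493 in CP and 516 in CM (-4.81, SE 0.29), and of 5 endothelial markers 3 fell, with KDR at 4237 and 593 (-2.84, SE 0.50). Of 5 smooth muscle markers 4 rose and CALD1 fell; ACTA2, the most abundant, had 4306 in CP and 9585 in CM (1.15, SE 0.24), and CNN1 had 720 and 6504 (3.18, SE 0.25). Their part in the changes of respiratory genes from CP to CM was not tested. The mesoderm genes TBXT, MIXL1 and EOMES rose from iPSC to M. Bulk RNA cannot tell fewer cells of a type from less RNA per cell, and this holds for every comparison below.

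Before the values, the sequences that bear on them are shown. ATP5F1C, shown for its isoforms, encodes the gamma subunit that turns inside the ATP synthase. In muscle this gene is known to skip a short exon. That exon, exon 9 of 10 in ENST00000356708, lies at chr10:7806974-7807010 on the plus strand (GRCh38) and is 37 bases long. It holds the stop codon of that form at chr10:7806978-7806980, while ENST00000335698 lacks the exon and stops at chr10:7807660-7807662 in the last exon. The last 27 coding bases of each form and the stop codon, which is in capitals, show where the coding sequences of 298 and 297 codons part (GENCODE 44):
ATP5F1C with exon 9 (ENST00000356708): attatctctggtgctgcagctctggatTAA
ATP5F1C without exon 9 (ENST00000335698): gaaattatctctggtgctgcagctctgTAA

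Promoters were looked at because most of these genes were called higher in the same comparison. RefSeq windows from 250 bases before to 50 bases after the start (GRCh38.p14) were matched for 77 of the 93 genes, and both strands were searched for 4 motifs that nuclear-encoded respiratory genes are known for. The NRF1 motif GCGCANGCG was in 23 of the 77 windows (29.9%), against 8.05% of all 27305 promoters and 13.7% of the 9150 promoters of genes listed in any table. The ETS-family motif CCGGAAG was in 24 (31.2%, against 10.7% of all and 17.2% of listed genes) and the YY1 motif AAGATGGCG in 8 (10.4%, against 1.85% and 3.49%). The ERR motif TCAAGGTCA was in 1 window. In all, 43 of 77 windows (55.8%) held at least 1 of these, against 30.1% of those of listed genes. A match is a string of letters and not a bound site, and matches on both strands can overlap. The median GC content was 61.0% in these windows, 58.3% in all promoters and 65.3% in those of listed genes.

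The windows of 3 complex I and ATP synthase subunits that rose from CP to CM are printed with the motifs in capitals, as those with a match and the largest change relative to its SE. NDUFA8 (chr9:122159730-122160029, minus strand) holds overlapping NRF1 matches, the first beginning 4 bases before and the last 2 bases after the annotated start. ATP5PF (chr21:25735005-25735304, minus strand) holds an NRF1 match 120 bases, a YY1 match 57 bases and an ETS-family match 30 bases before the start. NDUFA1 (chrX:119871582-119871881, plus strand) holds an ETS-family match, as reverse complement, 47 bases before it.
NDUFA8: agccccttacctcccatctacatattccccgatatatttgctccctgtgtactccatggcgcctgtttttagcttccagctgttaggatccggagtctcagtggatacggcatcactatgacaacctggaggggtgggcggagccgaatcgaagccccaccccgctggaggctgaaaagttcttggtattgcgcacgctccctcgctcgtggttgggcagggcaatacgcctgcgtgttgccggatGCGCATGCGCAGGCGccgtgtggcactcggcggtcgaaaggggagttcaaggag
ATP5PF: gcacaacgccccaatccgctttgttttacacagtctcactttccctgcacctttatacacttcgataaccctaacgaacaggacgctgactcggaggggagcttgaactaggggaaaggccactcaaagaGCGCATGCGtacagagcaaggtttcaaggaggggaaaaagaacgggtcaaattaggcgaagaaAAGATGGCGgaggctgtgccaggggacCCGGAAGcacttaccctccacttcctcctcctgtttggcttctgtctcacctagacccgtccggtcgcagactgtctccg
NDUFA1: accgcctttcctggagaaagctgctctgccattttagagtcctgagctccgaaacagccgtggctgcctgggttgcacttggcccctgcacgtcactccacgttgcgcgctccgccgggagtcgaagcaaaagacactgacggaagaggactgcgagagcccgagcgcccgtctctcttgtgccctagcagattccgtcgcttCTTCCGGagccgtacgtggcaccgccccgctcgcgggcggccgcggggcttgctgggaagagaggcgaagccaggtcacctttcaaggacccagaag

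Across the 6 comparisons the nuclear-encoded genes had few calls at the first steps, most were called higher from CP to CM, and part of them were called lower in the UBE2B-/- cardiomyocytes. The map of changes by gene shows these blocks.

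**Figure D1:**
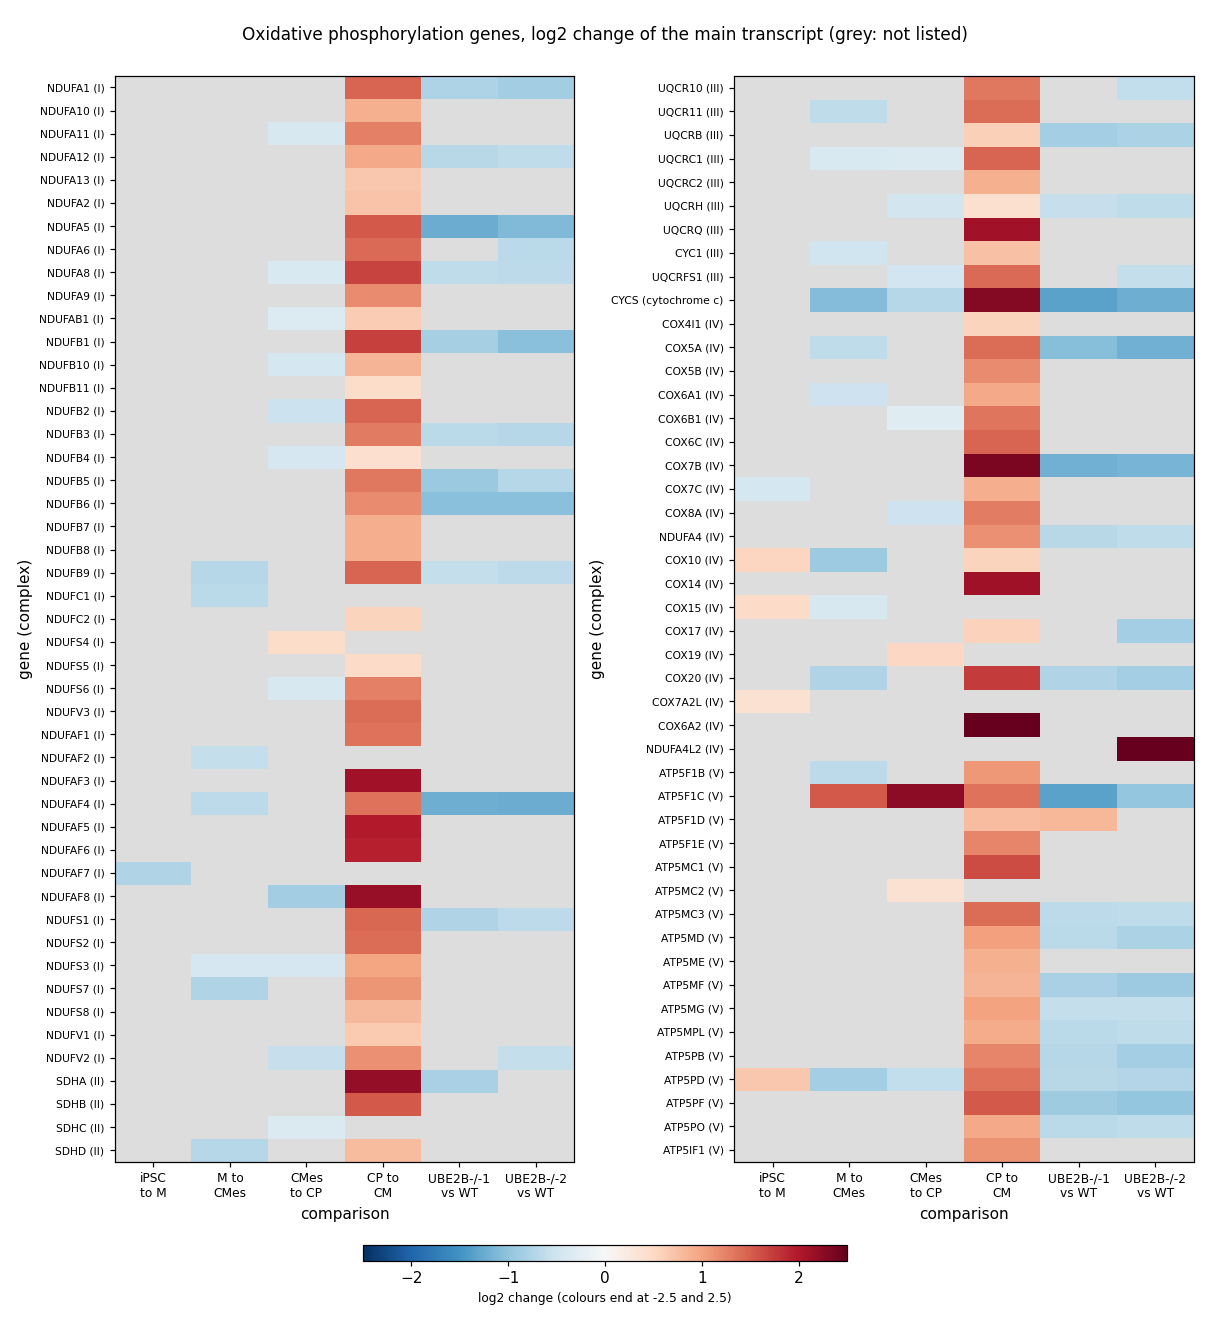
Rows are the 93 genes, grouped by complex, and columns are the 6 comparisons; colour is the log2 change of the main transcript, ending at -2.5 and 2.5, and grey marks a transcript that was not listed. In the CP to CM column all 83 listed genes are higher, while most coloured cells of both UBE2B-/- columns are lower.

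From iPSC to M, 1 gene was called higher and 1 lower, against a background of 1.79% of tested transcripts called higher and 2.18% lower. Of all listed gene names 6.17% were called higher and 8.42% lower by the same rule, against 1.08% each way here. Without the fold limit 4 were higher and 2 lower. Centred on the median of all listed transcripts, 4 were higher and 0 lower. That is 4.30% of these genes higher, against 8.45% higher and 3.06% lower over all listed gene names. ATP5PD, the d subunit of the ATP synthase stalk, rose from 2518 to 4017 estimated counts (log2 change 0.67, SE 0.11, q = 4.82e-08). NDUFAF7, a methyltransferase that assists complex I assembly, fell from 563 to 336 (log2 change -0.74, SE 0.21, q = 0.0143). Of the marker lists, 3 of 5 mesoderm, 2 of 8 mesenchymal, 2 of 8 endoderm and epithelial and 1 of 5 smooth muscle genes were higher at this step, and 2 mesenchymal, 2 smooth muscle, 1 of 5 endothelial and 1 of 7 pluripotency genes were lower. Their part was not tested.

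From M to CMes, 13 genes were called lower and 1 higher, where 3.51% of tested transcripts were called lower and 4.59% higher. The genes that fell came from every complex and from assembly factors. Over the 93 genes this was 14.0% lower, close to the 12.5% of all listed gene names by the same rule, and 1.08% higher, below the 16.2% of all listed gene names. When each gene was read from its most abundant transcript among those listed at that step, 20 were lower. That transcript can be a minor one where the main one was not listed. UQCRH was then read from ENST00000496387, at 145 estimated counts in CMes on the common scale, against 2906 for its main transcript. With a 1.79-fold limit 2 genes were lower. The largest fall relative to its SE was that of CYCS, cytochrome c itself, from 2944 to 1395 estimated counts (log2 change -1.08, SE 0.12, q = 4.84e-17). ATP5PD fell from 4297 to 2395 (-0.84, SE 0.12), the haem A synthesis enzyme COX10 from 812 to 434 (-0.90, SE 0.15), and the complex I subunit NDUFB9 from 2299 to 1395 (-0.72, SE 0.12). Among the anchoring subunits of succinate dehydrogenase, SDHD fell from 1568 to 961 (-0.71, SE 0.15). At the same step 5 of 8 mesenchymal, 3 of 8 endoderm and epithelial, 2 of 9 cardiomyocyte, 2 of 5 smooth muscle and 1 of 5 mesoderm markers rose. In the other direction 4 of 7 pluripotency markers, the mesoderm gene TBXT and CDH1, the most abundant of the endoderm and epithelial list (-0.84, SE 0.13), fell. Their part was not tested.

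From CMes to CP, changes were small. The 22 listed genes had a median log2 change of -0.41, close to the -0.35 of all listed gene names, and 3 were called lower and 1 higher (3.8% of tested transcripts were called lower and 4.66% higher). Over the 93 genes this was 3.23% lower and 1.08% higher, below the 14.7% and 15.7% of all listed gene names by the same rule. Without the fold limit, or when centred on all listed transcripts, 18 were lower. When centred, this was 19.4% of these genes, near the 21.4% of all listed gene names by that rule. When each gene was read from its most abundant transcript among those listed at that step, which need not be its main one, 6 were lower and 0 higher. The genes called lower were CYCS, from 1404 to 853 estimated counts (-0.72, SE 0.11), ATP5PD, from 2410 to 1568 (-0.62, SE 0.10), and the complex I assembly factor NDUFAF8 (-0.87, SE 0.27). ATP5F1C was the gene called higher, by its form without exon 9, while its form with exon 9, the more abundant of the pair at this step, was called lower. Cell-type markers moved at this step too: 8 of 9 cardiomyocyte, 6 of 8 mesenchymal, 3 of 5 smooth muscle and 4 of 8 endoderm and epithelial markers rose, while 6 of 7 pluripotency and 4 of 5 mesoderm markers, the endoderm gene SOX17 (-1.87, SE 0.47) and the endothelial gene EGFL7 (-0.72, SE 0.15) fell. FN1 had 39217 estimated counts in CMes and 267437 in CP, and TTR had 10.0 and 16366. Their part in the changes of respiratory genes was not tested.

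From CP to CM most of these genes were called higher. Of the 93 genes, 75 were called higher and 0 lower, 8 were listed under the 1.5-fold limit and 10 were not listed at their main transcript, of which NDUFC1 and NDUFS4 had another transcript that was called higher, with 9.49% of tested transcripts called higher and 7.92% lower. By the same rule 29.6% of all listed gene names were called higher, against 80.6% of these genes. Both shares are over genes listed in at least 1 comparison, and 54 of the 93 genes were listed in none before this one. The 80.6% is therefore a share of listed genes and not of all 107 protein-coding genes with fitting symbols. The 83 listed genes had a median log2 change of 1.23, which is 2.34-fold, and the middle of their range ran from 0.89 to 1.45, while all listed genes had a median of 0.56. Their SE was smaller too, with a median of 0.16 against 0.26, which makes a given change easier to list. Measured relative to the median of all listed transcripts (0.63), 41 genes were called higher and 0 lower (44.1% of these genes higher, against 13.5% of all listed gene names by that rule). The deposited p-values use the normal distribution; with a t distribution of 4 degrees of freedom 4 genes were called higher at this step, which is 4.30% against 2.58% of all listed gene names, and 0 in the earlier comparisons.

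Genes called higher came from every complex. Complex I had 35 of 43 genes called higher (median of the listed ones 1.25), complex II 3 of 4 (1.53), complex III 8 of 9 (1.33), complex IV 12 of 19 (1.27) and complex V 16 of 17 (1.10). All 9 genes of the core subunits of complexes I and III, which hold the redox centres, were called higher, with log2 changes from 0.66 to 1.43. Of 45 accessory subunits 37 were called higher. The 10 listed assembly factors had a higher median, 1.84, than the core subunits, 1.09, and this difference was not tested.

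**Figure D2:**
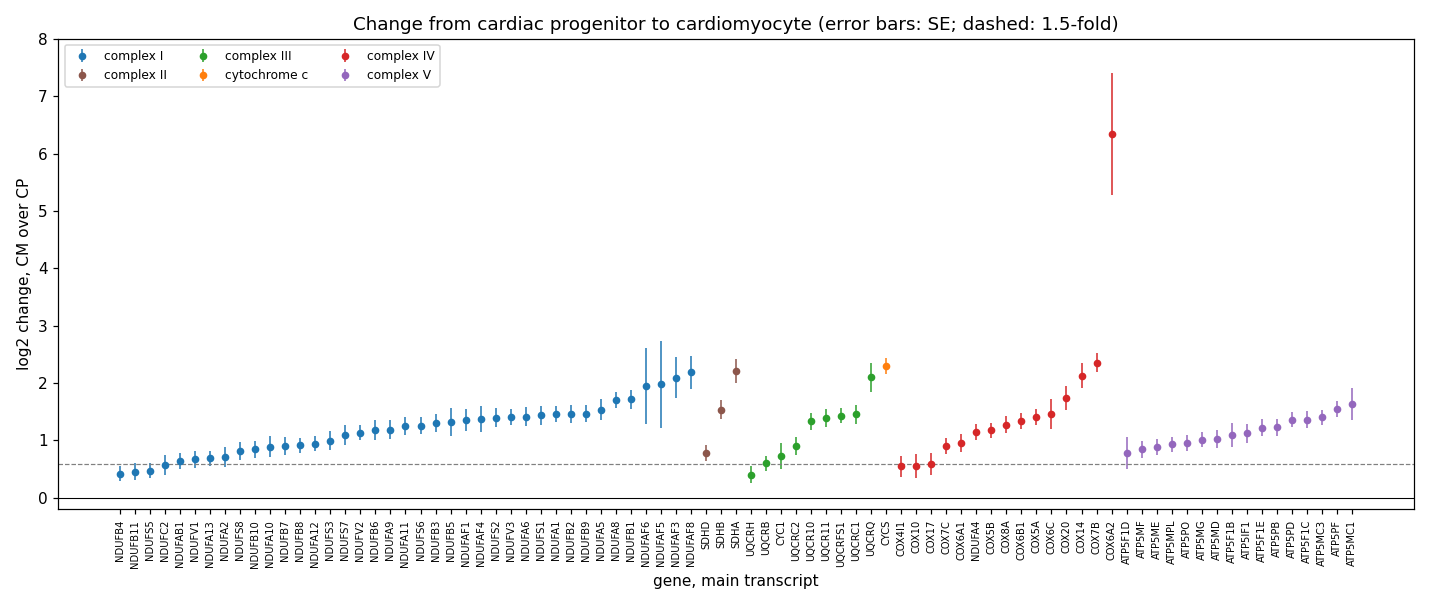
Points are the log2 changes from CP to CM of the main transcript of the 83 listed genes, ordered within complexes and coloured by complex, with the SE as error bars and a dashed line at 1.5-fold. All points lie above 0, from 0.40 for UQCRH up to COX6A2, whose fitted value of 6.34 is not a bound, since its level in CP is under 3 counts.

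The firmest rise was in CYCS, from 756 to 3707 estimated counts (log2 change 2.29, SE 0.14, q = 5.69e-57). COX7B, a small subunit of cytochrome c oxidase, rose from 292 to 1495 (2.35, SE 0.16). In complex I, the accessory subunits NDUFA8 and NDUFA1 rose from 522 to 1690 (1.69, SE 0.14) and from 842 to 2308 (1.45, SE 0.13). The ATP synthase coupling subunit ATP5PF rose from 744 to 2168 (1.54, SE 0.14). Each of these changes was over 10 times its SE.

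Succinate dehydrogenase, which also belongs to the citric acid cycle, had 3 of its 4 genes called higher. SDHA, the subunit that binds FAD and oxidises succinate, went from 472 to 2172 (2.20, SE 0.21), and the iron-sulphur subunit SDHB from 449 to 1294 (1.53, SE 0.16). The membrane anchor SDHD rose from 795 to 1367 (0.78, SE 0.14), and SDHC was not listed here. In complex III, cytochrome c1 (CYC1) rose from 1075 to 1779 (0.73, SE 0.22). ATP5IF1, the inhibitor of the ATP synthase, rose from 307 to 666 (1.12, SE 0.16). Among the genes for the identical c-ring protein, ATP5MC1 (1.63, SE 0.28) and ATP5MC3 (1.40, SE 0.13) rose, and ATP5MC2 was not listed at this step.

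The isoform genes of cytochrome c oxidase differed in level. COX6A2, the heart and skeletal muscle form of subunit VIa, had 0.783 estimated counts in CP and 103 in CM. With CP under 3 counts, this is at least 34.5-fold higher by that floor. Its ubiquitous counterpart COX6A1 went from 1717 to 3310 (0.95, SE 0.15). Per kilobase of transcript COX6A1 in CM was at 6163 estimated counts and COX6A2 at 278, so the ubiquitous form was still the more abundant. NDUFA4 was at 2583 per kilobase, COX6B1 at 7102 and COX8A at 4950, and all 3 were called higher.

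The ATP5F1C forms shown above moved in different ways. The form without exon 9 rose at every listed step, from 113 to 329 estimated counts from M to CMes (1.53, SE 0.35), from 331 to 1558 from CMes to CP (2.23, SE 0.31) and from 1380 to 3542 from CP to CM (1.36, SE 0.15). The form with exon 9 fell from 3035 to 1740 from CMes to CP (-0.80, SE 0.11) and was not listed at other steps. On a common scale the form without exon 9 made up 9.83% of both forms together in CMes and 47.2% in CP. From CMes to CP the forms of this gene moved in opposite directions.

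NDUFV3, a complex I accessory subunit, also had listed transcripts of opposite direction. Its long form ENST00000354250 has a coding exon of 365 codons at chr21:42903182-42904276 (plus strand, GRCh38, exon 3 of 4) that the short form ENST00000340344 lacks. From CP to CM the short form rose from 799 to 2110 (1.40, SE 0.14) while the long form fell from 446 to 144 (-1.63, SE 0.48, q = 0.00562). The short form went from 64.2% of both to 93.6%. COX4I1 had a minor transcript, ENST00000565078, that fell from 40.7 to 4.69 while the main one had 3804 in CP and 5564 in CM (0.55, SE 0.18), below the 1.5-fold limit. In UQCRH the opposite directions came from CMes to CP, where the main transcript was listed at -0.47 (SE 0.12, under 1.5-fold) and a transcript annotated for nonsense-mediated decay rose (0.99, SE 0.19).

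**Figure D3:**
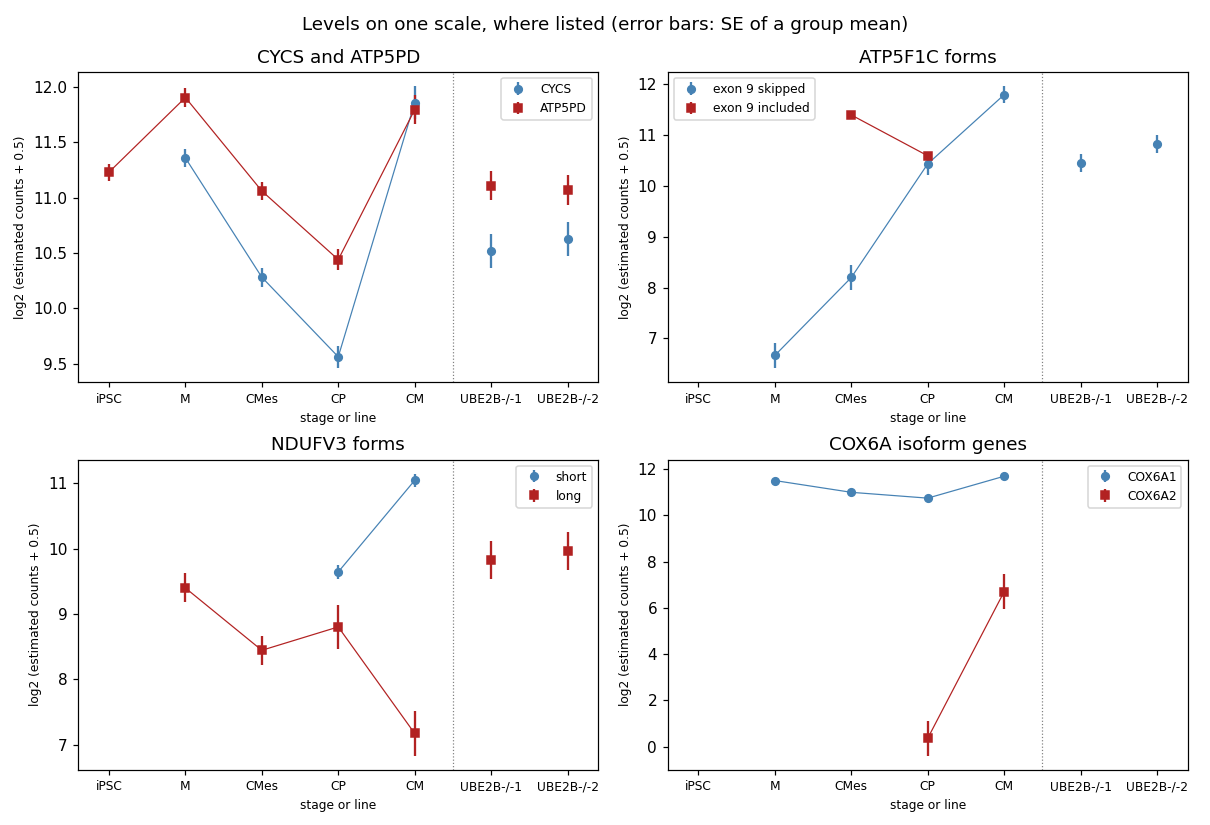
Levels as log2 of estimated counts plus 0.5, on 1 scale, for CYCS and ATP5PD, both forms of ATP5F1C, both forms of NDUFV3, and COX6A1 with COX6A2, by stage and in both UBE2B-/- lines; points are means of 3 libraries with the SE of a group mean, only groups from listed comparisons are drawn, and lines join wild-type stages. ATP5F1C without exon 9 climbs from M to CM, and the long form of NDUFV3 is lowest in wild-type CM and higher in both UBE2B-/- lines.

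ATP5PD was the gene listed in all 6 comparisons. On 1 scale it had 2400 estimated counts in iPSC, 3830 in M, 2134 in CMes, 1388 in CP and 3548 in CM, and 2206 and 2150 in UBE2B-/-1 and UBE2B-/-2. CYCS followed the same dip, with 2623 in M, 1244 in CMes, 756 in CP and 3707 in CM.

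Both UBE2B-/- lines differed from wild-type CM in the other direction. The edited gene gave a weak check of the labels: the main coding transcript of UBE2B was not listed for either line, and another UBE2B transcript, ENST00000499038, annotated with no coding sequence, was lower in UBE2B-/-1 (log2 -1.91, SE 0.53). An edit that changes the reading frame need not change RNA level. UBE2A, the closely related enzyme, was lower in UBE2B-/-1 (-0.68, SE 0.20) and not listed for UBE2B-/-2.

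In UBE2B-/-1, 28 of the 93 genes were called lower and 1 higher, where 2.18% of tested transcripts were called lower and 2.53% higher. In UBE2B-/-2, 33 were called lower and 1 higher, with 1.88% called lower and 2.9% higher in all. Over the listed gene names 7.10% and 5.63% were called lower by the same rule, against 30.1% and 35.5% of these genes. The SE of these genes was smaller here too, with medians of 0.21 and 0.20 against 0.27 and 0.28, which makes a given change easier to list. The median log2 change of listed genes was -0.76 and -0.72, against 0.68 and 0.84 for all listed gene names. Both lines were compared with the same 3 wild-type libraries, so they do not repeat each other independently. With the q-value limit set to 0.01, 13 and 16 genes were lower. With a t distribution in place of the normal one 0 genes were called in either line, and 0 of all transcripts.

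The lower genes came from each of the complexes. Complex V had 10 of 17 genes called lower in each line (median of listed genes -0.68 and -0.76), of which 9 were Fo and stalk subunits. Complex I had 11 and 13 of 43 lower (-0.78 and -0.71), complex IV 4 and 5 of 19, and complex III 1 and 4 of 9. Of the main transcripts of complex II only that of SDHA was listed, in UBE2B-/-1 (-0.81, SE 0.25). Of the 9 core subunits of complexes I and III, 1 was called lower in UBE2B-/-1 and 3 in UBE2B-/-2.

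Levels of single genes in the lines are on the scale of the fit of the 9 cardiomyocyte libraries, and those of markers and mitochondrial genes further on are on the scale of the stages. CYCS had the largest change relative to its SE in both lines, with 4277 estimated counts in wild-type CM, 1693 in UBE2B-/-1 (-1.34, SE 0.21, q = 2.89e-07) and 1824 in UBE2B-/-2 (-1.23, SE 0.21, q = 3.13e-06). COX5A, a subunit of cytochrome c oxidase, had 3519 in wild type against 1671 (-1.07, SE 0.22) and 1535 (-1.20, SE 0.22). NDUFA5 of complex I had 1044 against 443 (-1.24, SE 0.23) and 488 (-1.10, SE 0.23). COX7B, one of the firmest risers from CP to CM, had 1725 against 750 and 767 (-1.20 and -1.17, SE 0.28). The assembly factor NDUFAF4 had 388 against 167 and 164 (-1.21 and -1.24, SE 0.29). ATP5F1C without exon 9 had 4088 against 1610 (-1.34, SE 0.24) and 2087 (-0.97, SE 0.24).

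**Figure D4:**
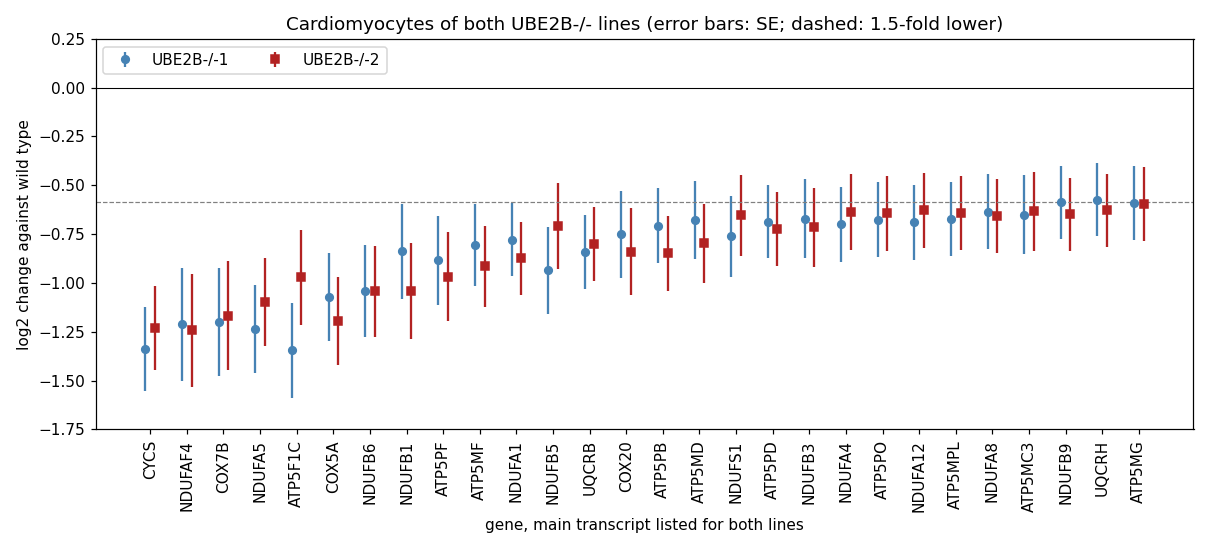
Log2 changes against wild-type CM of the 28 genes listed for both UBE2B-/- lines, with circles for UBE2B-/-1, squares for UBE2B-/-2, and the SE as error bars; the dashed line marks 1.5-fold lower. All 28 lie below 0 in both lines, from means of -1.28 for CYCS to -0.59 for ATP5MG, and the points of each gene overlap within their errors.

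For the 28 genes listed for both lines, the mean of the 2 changes ran from -1.28 to -0.59, with a median of -0.79, and 27 were called lower in both. Of the 1992 transcripts of any gene listed for both lines, 793 were called lower in both and 1196 higher in both. No difference between the lines passed the test: the largest was 0.37 for ATP5F1C, with a 95% interval from -0.10 to 0.85. By the Wald test on the deposited fit, 0 of the 1992 transcripts that both tables hold differed after adjustment and 29 before it at 0.05, of which 0 belonged to these genes. Only transcripts that passed against the same wild type in both lines were compared, which favours similar changes. The test therefore cannot show that the lines agree. Genes listed for 1 line, such as ATP5F1D and NDUFA4L2, were not compared. The intervals are wide: a typical half-width was 0.40 on the log2 scale. Of 8 genes listed for 1 line, 6 were lower there, and the only values that the fit allows for the other line were below 0 for those 6.

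The exceptions were higher. ATP5F1D, the F1 delta subunit, was higher in UBE2B-/-1 (0.82, SE 0.26, q = 0.0365). NDUFA4L2, a paralogue of NDUFA4 known to respond to low oxygen, was higher in UBE2B-/-2 (5.16, SE 1.58, q = 0.0295) at a mean of only 13.3 estimated counts over the 9 libraries. The long form of NDUFV3 was higher in both lines, with 166 estimated counts in wild type, 1049 in UBE2B-/-1 (2.66, SE 0.41, q = 9.14e-08) and 1146 in UBE2B-/-2 (2.78, SE 0.41, q = 1.36e-08), while its short form was not listed. Genes whose main transcript was not listed for a line could have another that was: transcripts of ATP5MC1 (-1.08 and -1.07, SE 0.30), COX7C (-1.16 and -1.34, SE 0.30) and UQCRC2 (-0.79 and -0.69, SE 0.22) were lower in both lines.

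Markers of cell types moved with these values. Of 9 cardiomyocyte markers, ACTN2, PLN, TNNT2 and TTN were lower in both lines: TNNT2 had 22202 estimated counts in wild-type CM on the stage scale, 7985 in UBE2B-/-1 (-1.48, SE 0.42) and 6491 in UBE2B-/-2 (-1.77, SE 0.42). The main transcripts of the other 5, MYH6, MYH7, MYL7, NKX2-5 and TNNI1, were not listed, but other transcripts of MYL7 and TNNI1 were lower in both lines and one of MYH6 in UBE2B-/-2. Of 8 mesenchymal markers 2 were higher in UBE2B-/-1 and 5 in UBE2B-/-2: COL3A1, the most abundant, went from 6406 to 72997 and 179417, and DCN from 5.71 to 551 and 1563. Of 5 endothelial markers EGFL7 was higher in both lines, with 139 in wild type, 458 in UBE2B-/-1 (1.72, SE 0.35) and 450.4 in UBE2B-/-2 (1.70, SE 0.35). Of 8 endoderm and epithelial markers SOX17 was higher in UBE2B-/-1 (2.18, SE 0.57), and a transcript of EPCAM other than the main one was lower in UBE2B-/-2. No main transcript of a smooth muscle marker was listed for either line, but the CNN1 transcript ENST00000586059 had 629 in wild type against 172 (-1.87, SE 0.28) and 175 (-1.84, SE 0.28), and CALD1 had one transcript higher in UBE2B-/-1 and another lower in UBE2B-/-2. Other transcripts of PDGFRA in UBE2B-/-1 and of the endothelial KDR in UBE2B-/-2 were higher. Their part in the lower respiratory genes was not tested.

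Genes around the pathway were read from other lists. Of the 13 subunits encoded by mitochondrial DNA, 7 were called lower from CMes to CP (median -1.19), and 12 were called higher from CP to CM (from 1.78 to 3.09, median 2.32). Over all listed gene names 14.7% were called lower from CMes to CP and 29.6% higher from CP to CM. In the lines 2 were lower in UBE2B-/-1 and 7 in UBE2B-/-2, where 7.10% and 5.63% of all listed gene names were called lower. MT-ND3, a core subunit of complex I, had 42477 estimated counts in wild-type CM, 14825 in UBE2B-/-1 (-1.52, SE 0.27) and 10102 in UBE2B-/-2 (-2.07, SE 0.27). MT-ATP8 of the ATP synthase went from 19602 to 7449 and 5189. The libraries were selected for poly-A RNA, which captures mitochondrial transcripts by their short tails.

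Regulators of mitochondrial biogenesis differed from one another. PPARGC1A, the coactivator PGC-1 alpha, rose from CMes to CP (2.44, SE 0.44) and again from CP to CM (4.10, SE 0.21), from 99.6 to 1714 estimated counts, and was lower in UBE2B-/-1 (-1.74, SE 0.30) and UBE2B-/-2 (-1.49, SE 0.30). PPARGC1B fell at M to CMes (-1.92, SE 0.31) and CMes to CP (-1.21, SE 0.32), rose at CP to CM (2.41, SE 0.36) and was lower in both lines (-1.52 and -0.95, SE 0.30). The nuclear receptors ESRRA (2.27, SE 0.36) and ESRRG (1.70, SE 0.26) rose at CP to CM. TFAM, which packages mitochondrial DNA, and the mitochondrial RNA polymerase POLRMT fell at that step (-0.87, SE 0.14 and -0.67, SE 0.16). POLRMT was the regulator called higher in the lines, in UBE2B-/-1 (0.62, SE 0.21, q = 0.0496) and UBE2B-/-2 (0.67, SE 0.21, q = 0.0307). In all 7 of 16 regulators were called higher and 2 lower from CP to CM, 1 higher and 3 lower in UBE2B-/-1, and 1 higher and 4 lower in UBE2B-/-2. Over all listed gene names 29.6% were called higher and 24.7% lower from CP to CM, 8.20% higher and 7.10% lower in UBE2B-/-1, and 9.54% higher and 5.63% lower in UBE2B-/-2. PPARA was lower in both lines (-1.13 and -0.99, SE 0.24) and ESRRG in UBE2B-/-2 (-1.49, SE 0.49).

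Of 38 other assembly factors 16 were called higher and 1 lower from CP to CM, where 29.6% of all listed gene names were called higher, with HIGD1A, a complex IV regulator, the most abundant (1.82, SE 0.14), and the exception was PET117 (-1.25, SE 0.19). From M to CMes, where 12.5% of all listed gene names were called lower and 16.2% higher, 10 were called lower and 2 higher, with LRPPRC the most abundant (-0.81, SE 0.14). In the lines, against the shares given for the regulators, 6 were lower and 0 higher in UBE2B-/-1, and 3 lower and 1 higher in UBE2B-/-2, HIGD1A being lower in both (-0.76 and -0.70, SE 0.19) and SURF1 higher in UBE2B-/-2 (1.18, SE 0.37). The ATP carrier of heart, SLC25A4, rose from 299 to 6583 (4.46, SE 0.16) and was lower in UBE2B-/-1 (-1.04, SE 0.33) and UBE2B-/-2 (-1.25, SE 0.33), while no main transcript of the other carriers, of 9 in all, was listed for these comparisons. The phosphate carrier SLC25A3 had another transcript, ENST00000551917, that went from 5.38 to 2079 from CP to CM and was lower in UBE2B-/-1 (-1.99, SE 0.35) and UBE2B-/-2 (-1.84, SE 0.35).

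**Figure D5:**
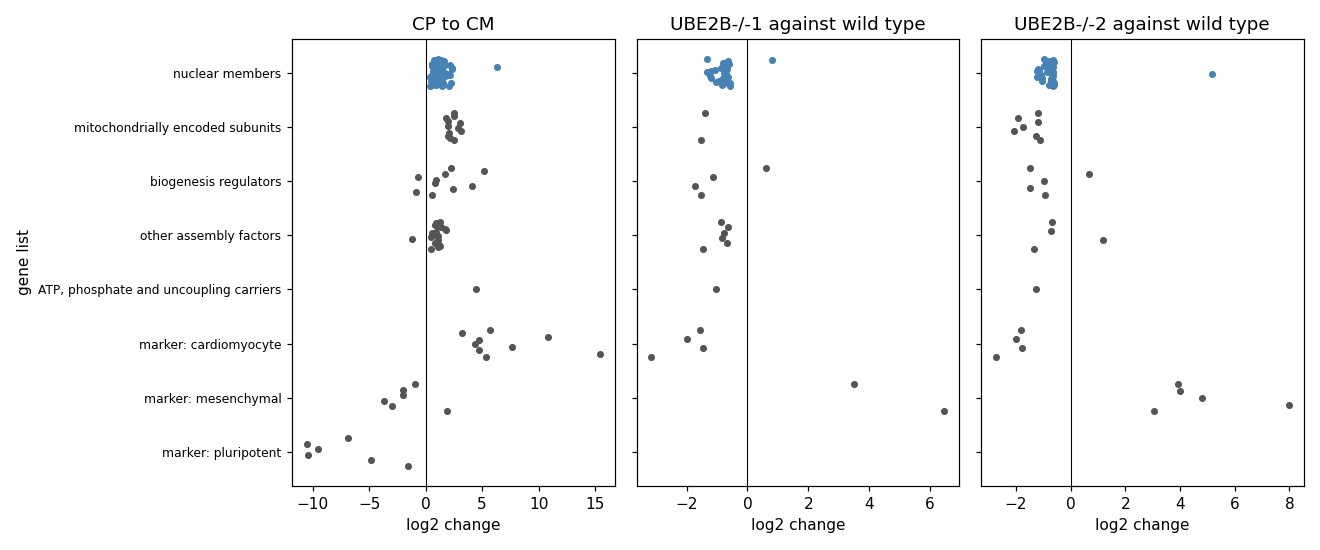
Each point is the log2 change of 1 listed gene from CP to CM and in both UBE2B-/- lines, by list: the nuclear-encoded genes, subunits encoded by mitochondrial DNA, regulators, other assembly factors, carriers, and markers of cardiomyocytes, mesenchymal and pluripotent cells. Mitochondrially encoded subunits are all to the right of 0 from CP to CM and all to the left in both lines, on the same side as the cardiomyocyte markers, while listed mesenchymal markers are to the right in both lines.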

How the data were processed

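RNA from 21 libraries was analysed through 6 tables that the authors deposited, 1 per comparison. Per the study's methods, reads were trimmed with the FASTX-Toolkit, quantified with Kallisto against hg38 and compared with Sleuth by a Wald test; the submitters' processing notes name kallisto and sleuth as well. The deposited p-values and q-values come from that test, the deposited effects and standard errors and means are on a natural log scale of estimated counts plus 0.5, and the deposited variance terms of the fit were used as a score with no fixed range. Each stage comparison used 6 libraries, and both UBE2B-/- comparisons share 1 fit over 9. The tables hold no values per library and no depth. Per the study's methods the 3 samples of a group came from plates started at different times. The deposited technical variance, that of quantification, was a median of 11.5% of the fitted variance for these genes from CP to CM, and 3.69% and 3.34% for UBE2B-/-1 and UBE2B-/-2. The columns hold the authors' comparisons; here they were treated as the deposited fit, since group means, the number of transcripts tested (65457 to 71328) and the replicate spread could be worked out from them, and each recovered identity was checked on the tables.

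Effects were divided by the natural log of 2. A transcript was called at q at most 0.05 and 1.5-fold. A gene was represented by the listed transcript with the highest mean over all tables, with ties going to the reference annotation. Tables were put on 1 scale through the stage they share; the offsets had interquartile ranges under 0.01 log2. The 2 lines were compared, for transcripts listed for both, by the Wald test with Benjamini-Hochberg adjustment. The NRF1 motif was shortened by its last letter after the longer form had been searched. GENCODE 44 lengths were used per kilobase, and of the listed transcripts 93.9% to 95.1% had a match there. At most 7 listed transcripts of a table repeated the values of another of the same gene. Genes named are the 5 with the largest change relative to its SE in each direction per comparison, isoform pairs, SDH genes, CYC1, CYCS, ATP5IF1, genes listed for a UBE2B-/- line, genes with opposite transcripts and the listed members of gene lists; the regulators, carriers, assembly factors and markers are named from those lists. The members and lists were chosen with earlier results of these data known. Alternatives were no fold limit, a stricter limit, a stricter q-value, a t distribution, another transcript, subunits only and centring. Computation used Python 3, numpy, pandas, scipy and matplotlib, and was tested on simulated data.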

Additional observations from a re-analysis of the deposited data

How the results depend on the processing

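Counts are of genes called. By gene, only centring and another transcript could change the sign of a called change. Under these 2 settings the signs held, except those of UQCRB when centred and of ATP5F1C with another transcript. Of the called changes, 154 were no longer called with a t distribution and 4 were kept. With the 1.79-fold limit 65 were no longer called, with the stricter q-value 41, and when centred 37 besides UQCRB. Without the fold limit, genes higher from iPSC to M numbered 4 and lower 2, and from CMes to CP 4 higher and 18 lower. With a natural log change of at least 0.585, which is 1.79-fold, 2 were lower from M to CMes, 1 from CMes to CP, 9 in UBE2B-/-1 and 12 in UBE2B-/-2, and 0 were higher in UBE2B-/-1 or in either direction from iPSC to M. At a q-value of at most 0.01, 13 were lower in UBE2B-/-1 and 16 in UBE2B-/-2, 0 were higher in either line, and 0 were lower from iPSC to M. With a t distribution (4 degrees of freedom for stages, 6 for the lines) 4 genes were higher from CP to CM and 0 were called in any other comparison or direction. With the highest listed transcript in each table, 4 were higher and 2 lower from iPSC to M, 20 lower from M to CMes, 0 higher and 6 lower from CMes to CP, and 2 higher in each line; ATP5F1C from CMes to CP then became -0.80 (log2) and was called lower, since its form with exon 9 was the more abundant. With subunits only, 0 were lower from iPSC to M. Centred on the median of all listed transcripts, 41 were higher from CP to CM and 18 lower from CMes to CP. These were 44.1% and 19.4% of these genes, against 13.5% and 21.4% of all listed gene names. By that rule 0 were higher from M to CMes (6.90% of all listed gene names) and 0 in either line. From iPSC to M 4 were higher and 0 lower, which is 4.30% higher against 8.45% of all listed gene names. UQCRB from CP to CM then became -0.035 (log2). The cause of these differences was not tested. No replicate could be left out, because the tables hold no values per library, and depth is unknown. No paired analysis was possible because the tables hold only differences of group means.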

Other observations

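Among the rows left out of the gene set, the pseudogenes UQCRFS1P1 and NDUFV2P1 were listed from CP to CM. UQCRFS1P1 went from 78.3 to 190 estimated counts (log2 1.27, SE 0.30) and NDUFV2P1 from 62.5 to 126 (1.01, SE 0.34). Their parent genes, UQCRFS1 and NDUFV2, rose at the same step, and reads of near-identical copies could be divided between them.

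Of the 176 transcripts listed, 139 were annotated as protein coding, 8 as targets of nonsense-mediated decay and 8 as retained introns. The main transcript of the gene was protein coding in 89 of the 93 genes.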
